A study of Caenorhabditis elegans with 10 samples.

Results

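The circRNAs described here come from 3 host genes that regulate Rab GTPases: *tbc-9*, *denn-4* and *rin-1*. They were chosen as the rows of the count table whose host gene, as named in the study's list of detected circRNAs, is one of these genes. The rule found 5 of the 141 loci in the table, 2 from *tbc-9*, 2 from *denn-4* and 1 from *rin-1*. Of these, 3 had the same coordinates in the table and the list, and 2 (*tbc-9* cel_circ_0000567 and *rin-1* cel_circ_0001201) were linked to a list row of equal span (within 1 nt) that starts 31 and 21 nt further along the chromosome.

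Total RNA was sequenced from whole *nova-1(tm6146)* hermaphrodites, a deletion strain that was outcrossed, and from whole wild-type (N2) hermaphrodites, with 5 biological replicates of each genotype, all collected on day 3 of adulthood. Animals of both genotypes were grown at the same temperature on OP50 bacteria and kept from the last larval stage on 5-fluorodeoxyuridine (FUdR), which blocks progeny. The mutation is present in every cell and a single mutant strain was used, so an effect of *nova-1* and of other variants in that strain cannot be told apart. In whole animals, fewer cells that make a circRNA and less of it per cell cannot be told apart either. Each count is a read placed on the 200-nt scaffold of a back-splice junction, where the 3′ end of a circularized stretch of exons has been spliced onto its own 5′ end. The replicates held 8514 to 9437 counts in *nova-1* mutants and 7955 to 15014 in wild-type, the highest being wild-type replicate 1. No locus was linked to *nova-1* itself, so the genotype could not be checked in this table.

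Rab GTPases are molecular switches on the membranes of vesicles and organelles, where their GTP-bound form recruits the proteins that move, tether and fuse vesicles. GEFs (guanine nucleotide exchange factors) load a Rab with GTP, and GAPs (GTPase-activating proteins) speed up GTP hydrolysis and so switch it off. TBC domains are the catalytic domains of most Rab GAPs, DENN domains act as Rab GEFs, and RIN proteins carry a VPS9 domain, which in mammals is a GEF for Rab5-type GTPases of early endosomes. NOVA proteins are KH-domain RNA-binding proteins, known in mammalian neurons as splicing regulators. A circRNA has no free ends and takes exons out of the linear transcript of its host gene, so its level is not the level of the host mRNA, which was not measured in this table.

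All 5 circRNAs consist of coding exons in the interior of their genes. In the WBcel235 annotation *tbc-9* lies on the minus strand of chromosome IV (13476932 to 13502856). The junction of cel_circ_0000567 joins the end of exon 7 to the start of exon 4 of 18 in transcript Y45F10A.6a.1 (13497766 to 13499314, 511 nt after splicing, residues 131 to 301 of 1246), and that of cel_circ_0000566 joins exon 12 to exon 11 of the same transcript (13485527 to 13486992, 453 nt, residues 679 to 829). The exons of cel_circ_0000566 belong to all 7 annotated transcripts of the gene, and both end exons of cel_circ_0000567 to 4 of the 7. *denn-4* lies on the plus strand of chromosome IV (1924001 to 1948080). Its cel_circ_0000479 runs from exon 8 to exon 14 of 22 in transcript F52C12.4c.1 (1933690 to 1938199, 968 nt, residues 444 to 767 of 1545), or is 929 nt where an exon inside it is skipped, as in F52C12.4a.1. The other *denn-4* circRNA, cel_circ_0000947, runs from exon 19 to exon 20 of F52C12.4c.1 (1943589 to 1944944, 496 nt, residues 1206 to 1371). *rin-1* lies on the minus strand of chromosome V (14784151 to 14815600), 3.25 Mb from *nova-1* on the same chromosome. Its cel_circ_0001201 is the only one made of a single exon, exon 19 of 25 in C48G7.3a.1 (14795926 to 14796474, 549 nt, residues 967 to 1150 of 1889). The spliced lengths of cel_circ_0000566 and cel_circ_0001201 are multiples of 3, and those of the other 3 are not. Which exons lie inside a circle was read from the annotation, since a junction count shows only its ends.

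**Figure D1:**
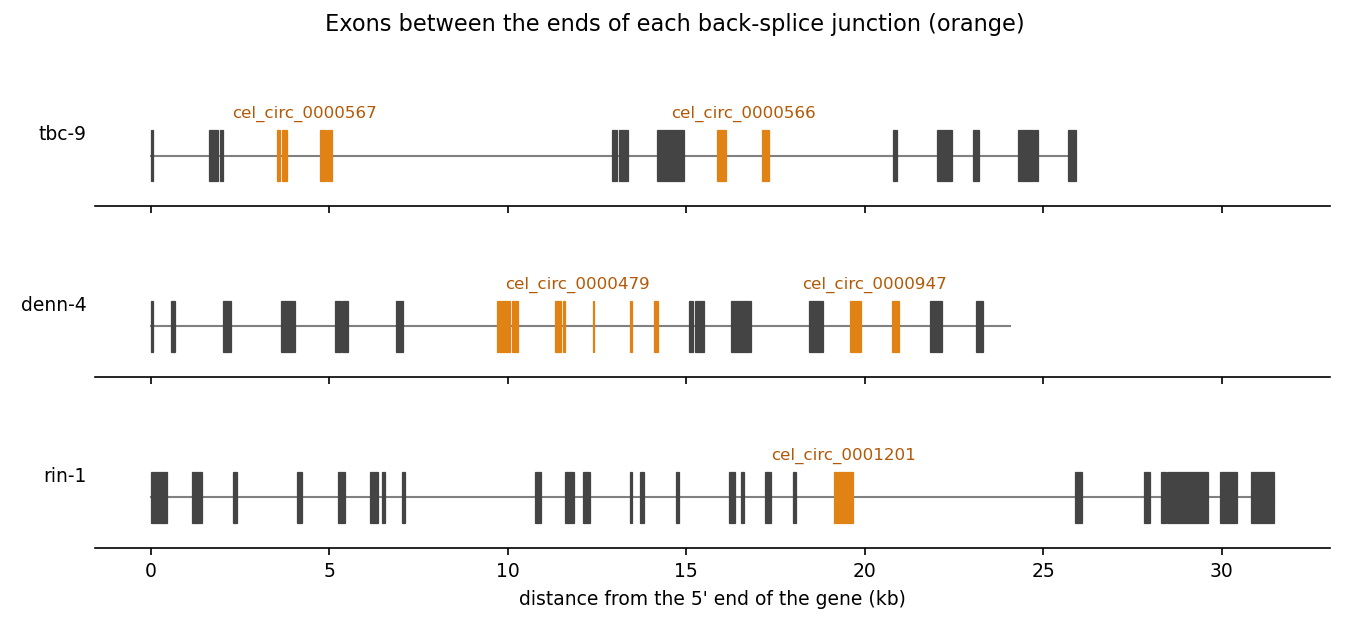
Exons of the transcript with the most exons for *tbc-9*, *denn-4* and *rin-1*, drawn to scale as distance from the 5′ end of the gene in kb. Orange boxes are the exons between the ends of each back-splice junction, black boxes are other exons and the grey line is the extent of the gene. Both *tbc-9* circRNAs and the *rin-1* circRNA end before a long intron.

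The introns next to these exons were long. Across all protein-coding genes the median annotated intron was 68 nt. The downstream introns were 7838 nt for cel_circ_0000567, 6226 nt for cel_circ_0001201 and 3470 nt for cel_circ_0000566, longer than 99.7%, 99.5% and 98.7% of introns. The upstream introns of these 3 were 1504, 1047 and 922 nt, but that of cel_circ_0001201 was 409 nt in transcript C48G7.3j.1. The *denn-4* circRNAs had shorter downstream introns in F52C12.4c.1, of 891 nt for cel_circ_0000479 and 886 nt for cel_circ_0000947. Their upstream introns were 2616 nt for cel_circ_0000479, the longest upstream intron of the 5, and 759 nt for cel_circ_0000947, and all 4 exceeded 88.5% or more of introns. Long flanking introns were a property of the table as a whole, since the 120 loci whose ends matched a pair of annotated exons had a median upstream intron of 1414 nt (113 loci with one) and a median downstream intron of 1560 nt. For these medians the longest intron over the matching transcripts was taken at each locus. The 2 circRNAs that fell in *nova-1* mutants, described below, had the longest downstream introns of the 5, but a relation between intron length and change was not tested. Elsewhere in the table, the matched loci with a downstream intron of 5794 nt or more came from *afd-1*, *daf-16*, *mbk-2*, *Y105E8A.25* and *swah-1*. The log2FC (*nova-1* over wild-type) was 1.99 at *mbk-2* (6975 nt) and -0.20 to 0.12 at the *afd-1* loci (10754 nt). It was -0.82 at *daf-16* (7676 nt), -0.90 at *Y105E8A.25* cel_circ_0000162 (5947 nt) and -1.10 at *swah-1*.

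The coordinates in the table were offset from the annotated exons. For each of the 5 loci both ends met exon boundaries of WBcel235 after one and the same shift, of 32 nt at both *tbc-9* loci, 22 nt at *rin-1* and 1 nt at both *denn-4* loci. Of the 120 matched loci, 88 needed a shift of more than 1 nt. The study's list had moved cel_circ_0000567 but kept cel_circ_0000566 at the coordinates of the table, 13485495 to 13486960, although the same 32 nt separate both from the exons. Positions given here are therefore those of the annotated exons, and the genome from which the scaffolds were built cannot be told from the table.

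Of the 5 circRNAs, *rin-1* cel_circ_0001201 and *tbc-9* cel_circ_0000567 were lower in *nova-1* mutants at a Benjamini–Hochberg adjusted *P* under 0.05 over all 141 loci (edgeR), and none was higher. By this criterion 28.4% of all loci changed, with 12.8% lower and 15.6% higher, and 2 lower of 5 is too small a count to set these loci apart. Scaling by column totals without TMM raised the median log2FC of all loci by 0.234 and gave 29 higher and 10 lower loci, in place of 22 higher and 18 lower, with the same 2 members lower and none higher. The same 2 circRNAs passed an absolute log2FC above 0.5 with an unadjusted *P* under 0.05, by which 40.4% of all loci changed, with 19.1% lower and 21.3% higher. The other *tbc-9* circRNA and both *denn-4* circRNAs passed neither. The median log2FC of the 5 was -0.41, beside -0.095 over all loci. Values of single loci below are normalized counts, which are counts divided by the TMM-scaled library and multiplied by the mean scaled library of 9421 counts, and log2FC is *nova-1* over wild-type.

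*rin-1* encodes a RIN protein, and its circRNA was the most abundant of the 5 in wild-type. The study measured circular and linear *rin-1* by RT-qPCR, whose outcome is not reported here and was not compared with the counts below. The primers are shown because they are the only sequences of these genes in the sources used. The circular pair faces outward, so that its product spans a back-splice, and the linear pair has only one primer in the circularized exon. The primers were not placed on the exons here, so it was not checked that the circular pair amplifies cel_circ_0001201, and no base is in capitals.
rin-1 circular forward: gatcattcttcattggggcgt
rin-1 circular reverse: gtggggatgttttgacgagg
rin-1 linear forward: ggtacttctcattggtcggc
rin-1 linear reverse: gtgagagcatttcattggtgga

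The *rin-1* circRNA had 13.9, 13.0, 8.92, 32.3 and 14.2 normalized counts in *nova-1* replicates 1 to 5, against 51.2, 41.8, 44.3, 37.0 and 46.7 in wild-type replicates 1 to 5. Every *nova-1* replicate lay below every wild-type replicate, but replicate 4 of the mutant was far above its 4 companions and close to wild-type replicate 4. In raw counts these 2 replicates were equal, with 31 each. The mean was 16.5 ± 9.11 in *nova-1* mutants and 44.2 ± 5.30 in wild-type (SD, n = 5 each), a log2FC of -1.43 (standard error 0.32, adjusted *P* = 0.0012, edgeR). Without *nova-1* replicate 4 the log2FC was -1.82. Of all loci, 9.93% were lower in the mutant with no overlap between genotypes.

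*tbc-9* encodes a TBC-domain protein. Its cel_circ_0000567, from the early exons, had 2.45, 4.99, 7.14, 7.30 and 8.74 normalized counts in *nova-1* replicates 1 to 5, against 41.3, 17.9, 17.5, 10.7 and 11.4 in wild-type replicates 1 to 5. The genotypes did not overlap, but the raw counts behind the gap were 8 in the highest *nova-1* replicates and 9 in the lowest wild-type replicate. Wild-type replicate 1 stood far above the other wild-type replicates. The mean was 6.12 ± 2.45 in *nova-1* mutants and 19.8 ± 12.5 in wild-type (SD, n = 5 each), a log2FC of -1.71 (standard error 0.46, adjusted *P* = 0.00589, edgeR). Without wild-type replicate 1 the log2FC was -1.24 (adjusted *P* = 0.0279, edgeR). That replicate had the lowest TMM factor, 0.699 against 0.92 to 1.22 in the other replicates of both genotypes. It also stood apart at loci of other genes. At *col-181* it had 2227 normalized counts, against 289 to 549 in the other wild-type replicates. At *zip-2* it had 127, against 547 to 728.

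The other *tbc-9* circRNA, cel_circ_0000566, had 27.8, 24.0, 27.7, 11.5 and 12.01 normalized counts in *nova-1* replicates 1 to 5, against 67.3, 17.9, 13.98, 8.35 and 28.0 in wild-type replicates 1 to 5. Here the genotypes overlapped across most of their ranges, and the lowest and the highest value were both wild-type. The log2FC was -0.41 with a 95% interval from -1.24 to 0.42 (adjusted *P* = 0.498, edgeR), an interval that includes a fall by more than a log2 unit. Without wild-type replicate 1, which was again the highest, the log2FC was 0.27 (adjusted *P* = 0.609, edgeR).

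The *denn-4* gene encodes a DENN-domain protein of the type that in mammals activates Rab10. Its cel_circ_0000479 had 14.7, 16.97, 26.8, 15.6 and 8.74 normalized counts in *nova-1* replicates 1 to 5, against 21.5, 24.9, 18.6, 13.1 and 17.6 in wild-type replicates 1 to 5. The mutant values spread on both sides of the wild-type ones. The log2FC was -0.21 with a 95% interval from -0.92 to 0.51 (adjusted *P* = 0.739, edgeR). It was -0.45 without *nova-1* replicate 3, the highest of the mutants, and -0.054 without *nova-1* replicate 5, the lowest.

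The cel_circ_0000947 circRNA of *denn-4* had 22.9, 16.97, 21.4, 14.6 and 18.6 normalized counts in *nova-1* replicates 1 to 5, against 6.28, 14.9, 11.7, 20.3 and 18.7 in wild-type replicates 1 to 5. The mutant mean was the higher one, but the ranges overlapped, and the lowest value was that of wild-type replicate 1. The log2FC was 0.41 with a 95% interval from -0.33 to 1.15 (adjusted *P* = 0.418, edgeR), the only positive one among the 5. It was 0.22 without wild-type replicate 1.

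**Figure D2:**
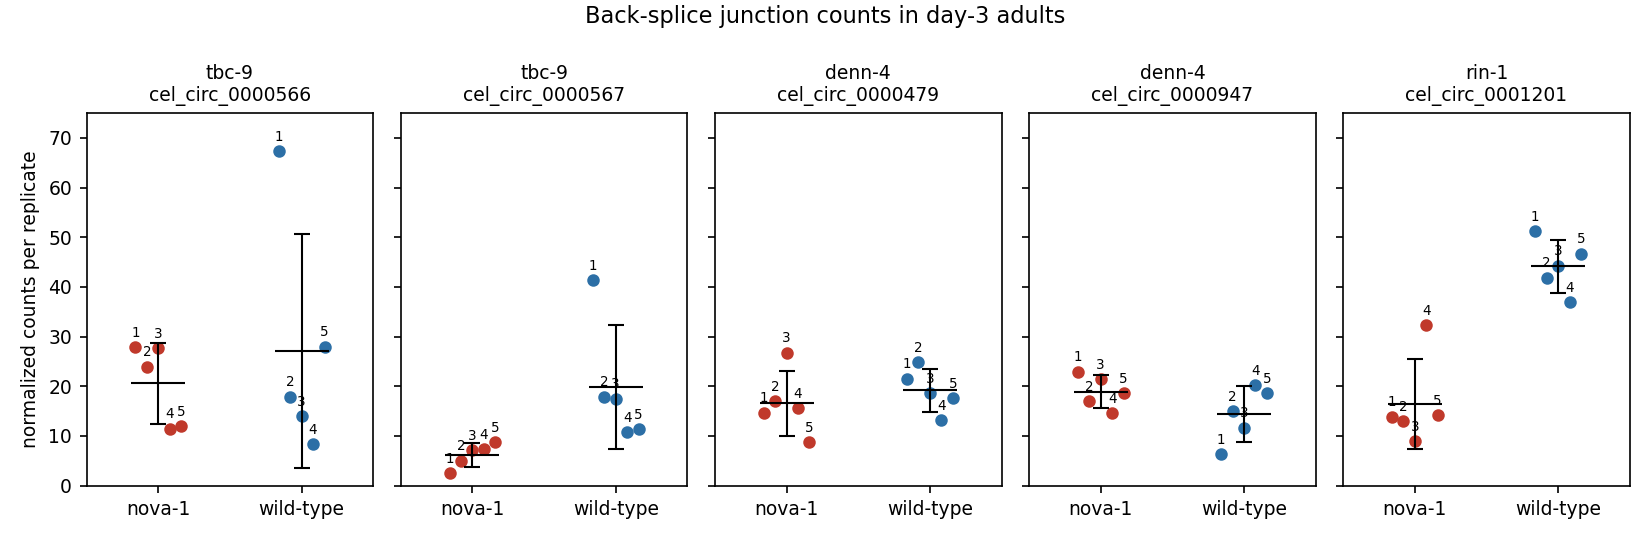
Normalized counts per replicate (y axis, linear) for the 5 circRNAs in *nova-1* mutants (red, left) and wild-type (blue, right). Points carry their replicate number, and bars are the mean ± SD (n = 5 each). The genotypes are apart for *tbc-9* cel_circ_0000567 and *rin-1* cel_circ_0001201 and overlap for the other 3, and wild-type replicate 1 is the highest at both *tbc-9* loci and the lowest at *denn-4* cel_circ_0000947.

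The order of the 5 levels differed between genotypes. Every scaffold is 200 nt long, so normalized counts were set side by side without a correction for length. Whether reads are placed equally well on each scaffold was not checked. In *nova-1* mutants the means were 20.6 for cel_circ_0000566, 18.9 for cel_circ_0000947, 16.6 for cel_circ_0000479, 16.5 for *rin-1* cel_circ_0001201 and 6.12 for cel_circ_0000567. The first 4 overlapped in their replicates. The highest *nova-1* value of cel_circ_0000567 equalled the lowest one of cel_circ_0000479, both from 8 counts in replicate 5, and lay below all *nova-1* values of the other 3. In wild-type the means were 44.2 for *rin-1*, 27.1 for cel_circ_0000566, 19.8 for cel_circ_0000567, 19.2 for cel_circ_0000479 and 14.4 for cel_circ_0000947. The *rin-1* circRNA lay above the other 4 in wild-type replicates 2 to 5 but below *tbc-9* cel_circ_0000566 in replicate 1, and the ranges of the other 4 overlapped. Among the 141 loci ordered by mean normalized count, *rin-1* cel_circ_0001201 ranked 95 in *nova-1* mutants and 32 in wild-type. The other 4 circRNAs ranked between 78 and 125 in *nova-1* mutants and between 58 and 105 in wild-type.

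The balance between the 2 junctions of a gene does not depend on library scaling. Of the *tbc-9* counts, 25.4% ± 14.6 were cel_circ_0000567 in *nova-1* mutants and 45.8% ± 11.9 in wild-type (SD, n = 5 each), a difference of -20.4 percentage points that the spread between replicates did not clear (two-sided exact permutation test, p = 0.0556). The *nova-1* shares ran from 8.11% (95% Wilson interval 2.80 to 21.3, 37 counts) to 42.1% (23.1 to 63.7, 19 counts), against 28.95% (38 counts) to 56.25% (33.2 to 76.9, 16 counts) in wild-type. The ranges overlapped because wild-type replicates 1 and 5 lay below *nova-1* replicates 4 and 5. By this test the *tbc-9* circRNAs were not shown to differ in their change, although one passed the test against wild-type and the other did not. Wild-type replicate 1, with 121 *tbc-9* counts, had 38.02% at cel_circ_0000567, within the range of its genotype, so that its excess was shared by both junctions.

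For *denn-4*, 54.3% ± 9.78 of the counts were cel_circ_0000947 in *nova-1* mutants and 42.1% ± 14.6 in wild-type (SD, n = 5 each), a difference of 12.2 percentage points (two-sided exact permutation test, p = 0.159). The shares ran from 44.4% to 68.0% in *nova-1* mutants and from 22.6% to 60.7% in wild-type. The lowest wild-type share was that of replicate 1, and without it the difference was 7.29 percentage points. Wilson intervals cover counting error only.

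**Figure D3:**
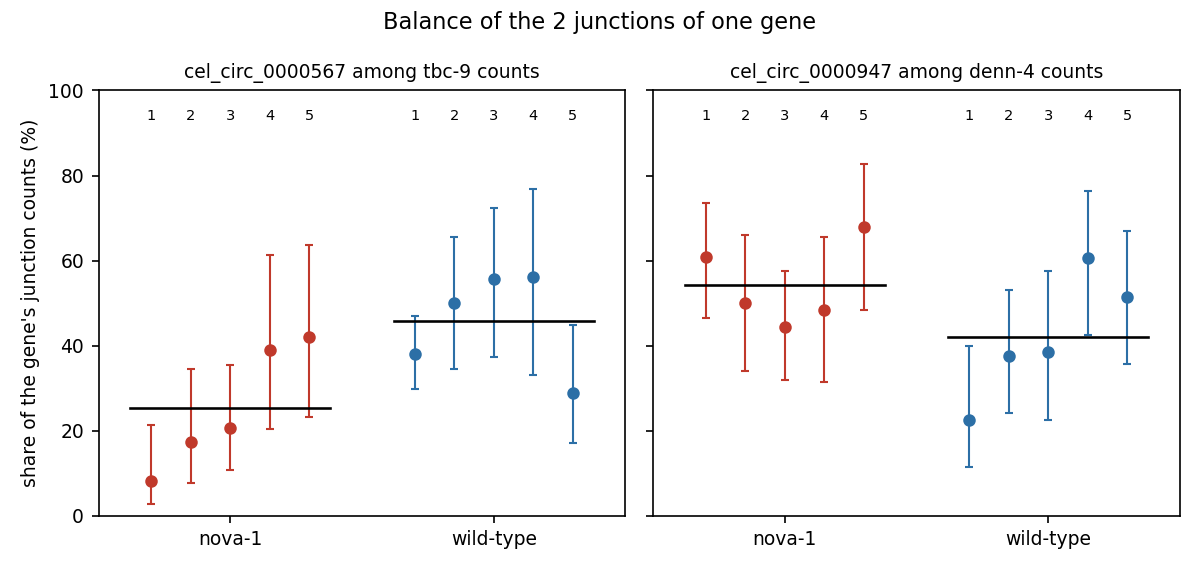
Share (%) of the junction counts of *tbc-9* at cel_circ_0000567 (left panel) and of *denn-4* at cel_circ_0000947 (right panel), in each *nova-1* replicate (red) and wild-type replicate (blue), with replicate numbers at the top. Error bars are 95% Wilson intervals, and black lines are means of 5 replicates. The mean *tbc-9* share is 25.4% in *nova-1* mutants and 45.8% in wild-type, with overlapping replicates.

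For sums over the loci of a gene, the counts of each host gene were added up and fitted as 120 units (host genes, and loci without one), with TMM factors and adjusted *P* computed over these units, so the summed values are not exact sums of the values above. Summed *tbc-9* circRNAs had 26.8 ± 6.29 normalized counts in *nova-1* mutants and 46.3 ± 34.0 in wild-type (SD, n = 5 each). This log2FC of -0.80 (standard error 0.34) did not pass the adjusted threshold (adjusted *P* = 0.0807, edgeR). It rested largely on wild-type replicate 1, with 105.5 normalized counts against 19.1 to 40.1 in the other wild-type replicates, and was -0.23 without it (adjusted *P* = 0.596, edgeR). Summed *denn-4* circRNAs had 35.6 ± 7.74 normalized counts in *nova-1* mutants and 33.4 ± 4.93 in wild-type (SD, n = 5 each), a log2FC of 0.10 with a 95% interval from -0.41 to 0.61 (adjusted *P* = 0.874, edgeR). All 5 loci together held 0.912% ± 0.184 of the circRNA counts in *nova-1* mutants and 1.20% ± 0.219 in wild-type (SD, n = 5 each; two-sided exact permutation test, p = 0.0556). When the total excluded the 3 loci with the highest mean counts, a choice made after seeing the data, the shares were 1.51% ± 0.225 in *nova-1* mutants and 2.49% ± 0.39 in wild-type (p = 0.00794, two-sided exact permutation test, the smallest p that 5 against 5 allow). Both sums include *rin-1* cel_circ_0001201 and *tbc-9* cel_circ_0000567, called lower above. They therefore do not show that the 5 loci fell as a group.

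**Figure D4:**
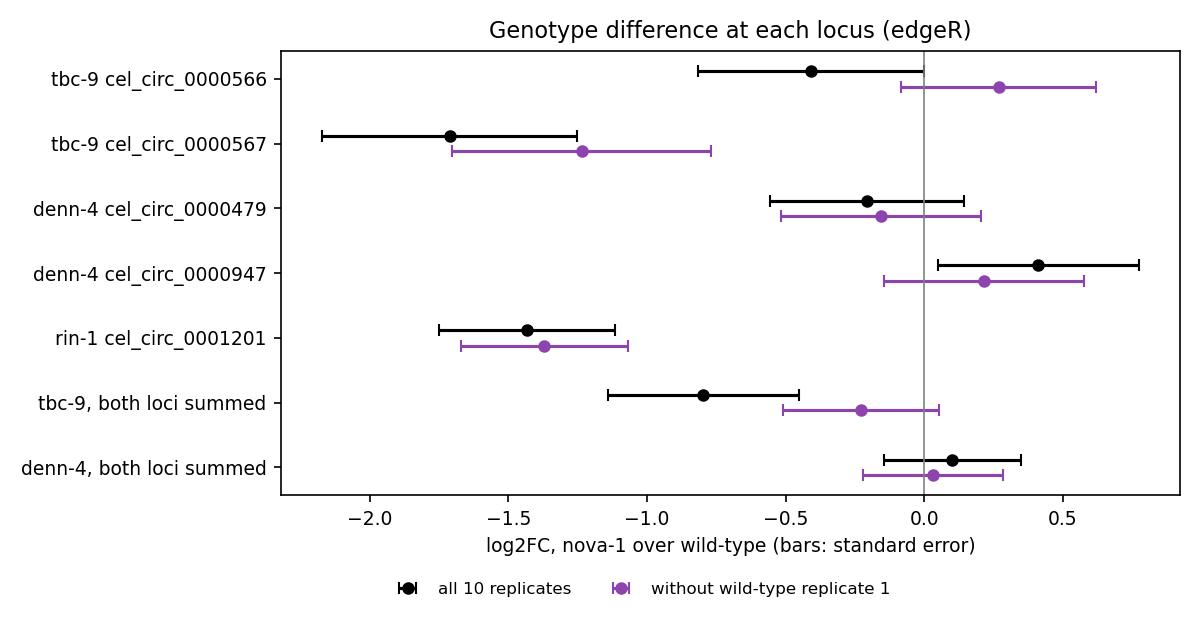
log2FC of *nova-1* over wild-type (x axis) for the 5 circRNAs and for the summed loci of *tbc-9* and *denn-4*, from all 10 replicates (black) and without wild-type replicate 1 (purple). Bars are standard errors. The *rin-1* value is -1.43 from all replicates, whereas the *tbc-9* sum is -0.80 from all replicates and -0.23 without wild-type replicate 1.

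The loci with the most similar profiles were found from log2 normalized counts (prior count 1) centred on their mean over the 10 replicates, as the root mean square (RMS) difference from the profile of the member. For both circRNAs that fell, the closest locus of another host gene was that of *vit-6*, a vitellogenin (yolk protein) gene, at an RMS difference of 0.303 for *tbc-9* cel_circ_0000567 and 0.459 for *rin-1*, where the median over all other loci was 1.06 and 1.01. Next came a *col-181* (collagen) locus at 0.362 for cel_circ_0000567 and an *mdt-20* locus at 0.516 for *rin-1*. For *tbc-9* cel_circ_0000566 the closest were *gly-4* at 0.549 and *pat-12* at 0.575, against a median of 1.03. For *denn-4* cel_circ_0000479 they were *Y39A3CL.7* at 0.378 and *Y53F4B.39* at 0.38, against a median of 0.736, and for cel_circ_0000947 they were *crh-1* cel_circ_0000439 at 0.191 and *nipa-1* at 0.282, against 0.72. These distances come from the same 10 libraries and are descriptions only. They include the difference between genotypes, and the *vit-6* and *col-181* loci were also lower in *nova-1* mutants (log2FC -1.47 and -1.71). Wild-type replicate 1 was the highest of the 10 replicates at *tbc-9* cel_circ_0000567, *vit-6* and *col-181* alike.

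Among 7 other host genes that regulate small GTPases, 4 had loci in the table, 9 in all. In *nova-1* mutants 2 of these 9 loci rose and 2 fell at the adjusted threshold, beside 15.6% of all loci higher and 12.8% lower, and the median log2FC was -0.46, beside -0.095 over all loci. Most of the 9 loci come from the gene *Y105E8A.25*, and the median is the value of its locus cel_circ_new_0000493. *tbc-17*, another TBC-domain gene, rose to 93.4 ± 10.4 normalized counts in *nova-1* mutants, against 59.9 ± 9.84 in wild-type (SD, n = 5 each; log2FC 0.64, adjusted *P* = 0.0304, edgeR), opposite in direction to *tbc-9* cel_circ_0000567. The log2FC of *tbc-17* was 0.54 to 0.86 under 17 alternatives, but 9 of them, which included 7 of the 10 with a single replicate left out, took the adjusted *P* above 0.05 (0.0838 at most). The RasGAP gene *gap-2* held the other increase (log2FC 2.62), and its other locus had a log2FC of -0.033. The RasGAP gene *gap-3* had -0.49 (adjusted *P* = 0.194, edgeR), and -0.69 without wild-type replicate 1, which passed the threshold (adjusted *P* = 0.0129, edgeR). The 2 decreases were loci of the RhoGEF gene *Y105E8A.25* (log2FC -1.52 and -0.90), and the genotypes overlapped at both. The larger decrease was -0.99 without wild-type replicate 1 (adjusted *P* = 0.023, edgeR), and the smaller lost its call without TMM and in 5 of the 10 fits with a replicate left out. The other 3 loci of this gene had log2FC of -0.51, -0.46 and -0.098, and the first of them passed the threshold without wild-type replicate 1 (log2FC -0.74, adjusted *P* = 0.0044, edgeR). No locus was linked to *tbc-10*, *sos-1* or *uig-1*. Of 5 membrane-traffic genes, *sec-23*, which encodes a subunit of the COPII coat of vesicles that leave the endoplasmic reticulum, had a log2FC of -0.57 (adjusted *P* = 0.0982, edgeR; 0.0491 without wild-type replicate 3), and *cogc-1*, which encodes a subunit of a Golgi tethering complex, had -0.35 (adjusted *P* = 0.739, edgeR). No locus was linked to *rme-1*, *fcho-1* or *pad-1*.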

How the data were processed

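Raw counts per junction scaffold, neither normalized nor pooled over replicates, were deposited as a single table of 10 samples. According to the methods, the authors aligned the reads to WBcel235/ce11 with HISAT2, realigned unmapped reads with BWA, predicted circRNA loci with CIRI2, removed those with few junction reads, mapped all reads to 200-nt junction scaffolds with Bowtie2, removed duplicates with Picard and counted with featureCounts. Columns were matched to samples by genotype and replicate number, and none was left over.

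Loci were linked to host genes by identical coordinates or by a single list row whose start lay at most 150 nt away and whose span differed by at most 1 nt. The link gave a host for 138 of 141 loci. Exons were taken from the Ensembl WBcel235 annotation as the smallest shift of at most 150 nt that put both ends (within 1 nt) on exons of one transcript.

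All 141 loci were fitted with edgeR v4.0.16 (R v4.3.3), with glmQLFit and glmQLFTest, TMM on column totals, no covariate and no filter on low counts. All 5 members also passed filterByExpr, which kept 118 loci. Standard errors are the absolute log2FC divided by the square root of *F*. Junction shares were compared with exact permutation tests (two-sided, smallest p 0.00794). Procedures were tested on simulated data, but the simulated counts had the same spread at every locus and no replicate set apart, unlike these data. The members had 3 to 75 counts per replicate, and the intervals given show the precision.

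The members, the gene lists and the settings were chosen with earlier results of these data known. Every member is named. Of the lists, every gene with a locus is named, and for likeness the 2 closest loci of other host genes. Alternatives were RLE factors, no TMM, total sequenced reads as library size, DESeq2 v1.42.0, filterByExpr, a robust fit, the replicate number as a block, and leaving out each replicate. Linear splicing and RT-qPCR were not analysed here.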

Additional observations from a re-analysis of the deposited data

Results flagged for a closer look

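Among 20 groups of 5 replicates (the 5 circRNAs, the summed loci of 2 genes and 3 shares, each in both genotypes), 3 had a replicate whose gap to the nearest other replicate was above 0.71 of the range of the group, where chance gives about 5% of groups. For *tbc-9* cel_circ_0000567, wild-type replicate 1 stood at 41.29 normalized counts, against 10.7 to 17.9 in the other wild-type replicates. For the summed *tbc-9* loci the same replicate stood at 105.5, against 19.1 to 40.1. The 2 groups share the counts of that locus, and wild-type replicate 1 also stood apart at loci of other genes, as given above. For *rin-1* cel_circ_0001201, *nova-1* replicate 4 stood at 32.32 normalized counts, against 8.92 to 14.2 in the other *nova-1* replicates. The same replicate was the lowest of its genotype at *denn-4* cel_circ_0000947 and *tbc-9* cel_circ_0000566, with 14.6 and 11.5 normalized counts.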

How the results depend on the processing

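At *rin-1* cel_circ_0001201 and *tbc-9* cel_circ_0000567 the decrease stayed past the adjusted threshold under all 17 alternatives each, with log2FC of -1.82 to -1.22 (adjusted *P* 7.8e-05 to 0.00891, edgeR and DESeq2) and -1.93 to -1.24 (adjusted *P* 0.00331 to 0.0279). The other 3 circRNAs passed it under none. Of these, *denn-4* cel_circ_0000947 stayed positive under all 17, but the direction of other loci without a call did not always hold. With column totals and no TMM, *denn-4* cel_circ_0000479 had a log2FC of 0.048, the second *gap-2* locus 0.22 and the *Y105E8A.25* locus nearest to 0 had 0.094. When single replicates were left out, the log2FC ran from -0.71 to 0.27 for *tbc-9* cel_circ_0000566, from -0.45 to -0.054 for *denn-4* cel_circ_0000479, from 0.22 to 0.53 for *denn-4* cel_circ_0000947, from -0.071 to 0.17 for the *denn-4* sum (negative without *nova-1* replicate 3) and from -1.08 to -0.23 for the *tbc-9* sum, which passed the threshold without wild-type replicate 4 (adjusted *P* = 0.035, edgeR). For those *gap-2* and *Y105E8A.25* loci it ran from -0.22 to 0.064 and from -0.32 to 0.11. The *tbc-9* share difference ran from -24.6 to -16.1 percentage points and passed an unadjusted 0.05 in 3 of 10 such fits. The summed share of the 5 loci differed by -0.352 to -0.219 percentage points, and passed in 3 of 10. Relative to sequenced reads (counts in 1000000 reads) the sum differed by -0.508 (p = 0.0397), and without the 3 largest loci in the total by -0.984 percentage points (p = 0.00794; both two-sided exact permutation tests). All these sums include *rin-1* cel_circ_0001201 and *tbc-9* cel_circ_0000567. For the other small GTPase regulators, the number of lower loci was 1 with no TMM and 1 to 3 with a replicate left out, and the number of higher loci was 1 with filterByExpr and 1 to 2 with a replicate left out. For membrane traffic the number of lower loci was 0 to 1 with a replicate left out. The replicate block left every call on the 5 circRNAs as it was and made the number of higher small GTPase regulator loci 1. Under the block the log2FC was -1.52 for *rin-1* and -1.59 for cel_circ_0000567, and the *tbc-9* share difference had p = 0.125 (exact permutation within replicate numbers, smallest p 0.0625). Same-numbered replicates did not deviate together, with correlations of -0.157 to 0.147 across loci, and the labels do not pair them. The cause of these shifts was not tested.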
